A study of Mus musculus with 90 samples.

Results

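Triglyceride synthesis and the lipins were followed through a list of 10 genes, chosen by symbol: *Lpin1*, *Lpin2*, *Lpin3*, *Gpam*, *Agpat2*, *Agpat3*, *Dgat1*, *Dgat2*, *Mogat1* and *Pnpla3*. Ensembl IDs were mapped to symbols, and all 10 were found among the 27654 gene IDs of the liver tables.

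Hepatocytes build triglyceride by adding fatty acids to glycerol 3-phosphate in steps: a glycerol 3-phosphate acyltransferase adds the first chain, an acylglycerophosphate acyltransferase adds the next and makes phosphatidic acid, a lipin removes the phosphate to give diacylglycerol, and a diacylglycerol acyltransferase adds the last chain. A monoacylglycerol acyltransferase can reach diacylglycerol by a shorter path. Lipins also act in the nucleus as partners of transcription factors, and in liver lipin 1 is known as a gene that responds to fasting and to glucocorticoids.

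The study sequenced polyadenylated RNA from the livers of 90 single male C57BL/6J mice, young adults, to ask how caloric restriction changes liver gene expression around the clock and what the glucocorticoid receptor (GR, gene *Nr3c1*) does in it. A time series covered 6 times of day, given as ZT (hours after lights on), in WT mice carrying unrecombined *GR* fl/fl alleles and in GR LKO mice, in which Alb-Cre deletes those alleles in hepatocytes. It held 42 mice on control diet, whose food was limited to the night in the last week (22 WT and 20 GR LKO), and 36 on caloric restriction, which ended at 40% fewer calories (18 WT and 18 GR LKO). A diet experiment compared 3 WT mice on caloric restriction with 3 WT controls at ZT12. A corticosterone experiment compared 3 WT mice given CORT with 3 WT controls, taken as given vehicle, at ZT12.

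Groups of the time series held 3 mice per genotype on caloric restriction at each time. On control diet they held 3 mice per genotype at ZT0 and ZT4, 4 per genotype at ZT8 and ZT12, and 4 WT against 3 GR LKO mice at ZT16 and ZT20. CORT was injected into the abdomen daily for a week shortly before lights off, with ethanol in oil as the vehicle. Control libraries of the CORT experiment carry NR in their titles, which do not name the vehicle. They are called vehicle livers here after the methods of the study. Control libraries of the diet experiment carry AL in their titles and night-restricted feeding in their labels, and the methods of the study give controls free food before that week. The 2 diets of the time series were deposited as separate sets of libraries, so diet and set cannot be told apart there and diet levels were compared in the diet experiment. Total estimated counts per library ran from 36442195 to 39492146 in the diet experiment, 13739631 to 16077943 in the CORT experiment, 14235473 to 20788575 in the caloric restriction series and 10057544 to 17089004 in the control diet series. Levels are given as CPM, the rounded count of a gene scaled to the total of its library after adjustment by a TMM factor, which was set within the diet experiment, the CORT experiment and each diet of the time series.

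*Nr3c1* (ENSMUSG00000024431), the deleted gene, was checked first. On control diet it ran from 73.0 to 118 CPM in the 22 WT livers (median 87.2) and from 16.2 to 29.0 CPM in the 20 GR LKO livers (median 21.5). On caloric restriction it ran from 70.1 to 113 CPM in 18 WT livers (median 93.9) and from 21.4 to 32.1 CPM in 18 GR LKO livers (median 24.9). No GR LKO liver reached the lowest WT liver on either diet, and *Nr3c1* passed the test in all 12 comparisons of genotype, with log2 fold changes from -2.06 to -1.70. Bulk liver RNA cannot tell fewer cells of a type from less RNA per cell.

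Per kb of exon, *Dgat2* and *Agpat2* had the highest median levels of the set in the control diet series and *Gpam* the lowest. Over the 42 livers of the control diet series the median was 143 CPM per kb for *Dgat2* and 103 for *Agpat2*, followed by 26.1 for *Agpat3*, 20.5 for *Lpin2* and 6.00 for *Dgat1*. Median levels of 1.65 CPM per kb for *Lpin1*, 1.39 for *Lpin3*, 0.786 for *Pnpla3* and 0.691 for *Mogat1* came next. In the 3 control livers of the diet experiment, taken at ZT12, the order differed: *Dgat2* stood at 191 ± 9.99 CPM per kb (SD, n = 3), *Agpat2* at 71.1 ± 2.29, *Agpat3* at 31.1 ± 1.5, *Lpin2* at 28.8 ± 1.31 and *Lpin1* at 21.4 ± 4.09. Neighbours *Agpat3* and *Lpin2* were separated there by less than the sum of their SDs, whereas *Lpin1* lay far above *Dgat1* at 7.57 ± 0.284 CPM per kb. *Lpin3* at 1.64 ± 0.334 and *Pnpla3* at 1.06 ± 0.784 CPM per kb were not separated by their spread, and *Mogat1* was at 0.433 ± 0.236. On caloric restriction in that experiment *Lpin2* at 80.5 ± 19.1 and *Lpin1* at 75.0 ± 12.2 CPM per kb had means above *Agpat2* at 62.6 ± 7.06, by less than the sum of the SDs (n = 3).

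*Gpam* (ENSMUSG00000024978, chr19:55067268-55127238, build mm10, minus strand), the mitochondrial glycerol 3-phosphate acyltransferase that opens the route, was almost empty in these tables. It had 0 estimated counts in 37 of 42 libraries of the control diet series, 26 of 36 of the caloric restriction series, 1 of 6 of the diet experiment and 5 of 6 of the CORT experiment. Its highest level in any library was 2.06 CPM, from 35.2 estimated counts. Whether reads of *Gpam* were assigned to another gene ID was not tested, so these values are those of the tables. It was too low for the filter on counts in all 14 comparisons of 2 groups and was tested in none of them. A library at 0 allows up to 3 counts, and this floor, like every interval of a count, covers counting error only.

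At ZT12 diet changed the 3 lipins and *Agpat3*, and CORT changed *Lpin1*, *Lpin2* and *Agpat2*. By edgeR at an adjusted p under 0.05, 4 of 9 tested members were called between caloric restriction and control diet, 3 higher and 1 lower, where 47.1% of the 13062 genes tested were called (23.5% higher, 23.6% lower). The median log2 fold change of the members was 0.17, and that of all genes tested was at -1.8e-06. After CORT 3 of 8 tested members were called, 2 higher and 1 lower, against 8.11% of 11523 genes (4.47% higher, 3.64% lower), with a member median of 0.20 and an all-gene median of -0.01. Groups did not overlap for 6 of the 9 tested members in the diet experiment, where 59% of genes tested were without overlap, and for 4 of 8 in the CORT experiment (32.9% of genes).

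On caloric restriction, genotype changed 3 of 9 tested members at ZT12, of which *Mogat1*, which passed the filter on counts through GR LKO livers alone, was higher and *Lpin1* and *Lpin2* were lower, where 15.3% of 11759 genes were called (7.42% higher, 7.84% lower). Over the tested members the median log2 fold change was -0.28, and over all genes it was -0.0041. At ZT4 it was 1 of 9 (0.69% of genes), at ZT8 2 of 9 (2.55%) and at ZT16 1 of 9 (4.54%). *Mogat1*, again through the filter by GR LKO livers alone, was 1 of the 2 at ZT8 and the 1 at ZT16. At ZT0 edgeR called 0 of 9 (0.502% of genes). There 6 had an unadjusted p under 0.05, as had 1606 of 12140 genes, and DESeq2 called 3 (434 genes). At ZT20 edgeR called 0 of 9 (1.47% of genes). There 3 had an unadjusted p under 0.05, as had 2340 of 12076 genes, and DESeq2 called 2 (686 genes). Tested members without overlap numbered 5 at ZT0 (20.4% of genes tested), 5 at ZT4 (21.4%), 3 at ZT8 (24.7%), 5 at ZT12 (36.9%), 2 at ZT16 (25%) and 3 at ZT20 (26.9%).

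On control diet, genotype changed 2 of 8 tested members at ZT12, *Mogat1* higher (again through the filter by GR LKO livers alone) and *Lpin2* lower, where 2.08% of 11428 genes were called (0.814% higher, 1.27% lower). Member and all-gene medians were -0.09 and 0.0037 on the log2 scale. At the other 5 times edgeR called 0 members. Of all genes it called 0.536% at ZT0, 0.195% at ZT4, 1.43% at ZT8, 1.98% at ZT16 and 0.42% at ZT20. At ZT0 3 of 9 had an unadjusted p under 0.05 (1798 of 11749 genes) and DESeq2 called 1 (407 genes). At ZT4 the counts were 1 of 9 (1152 of 11817 genes) and 0 (195 genes). At ZT8 they were 4 of 8 (1301 of 11582 genes) and 1 (369 genes). At ZT16 they were 3 of 9 (1950 of 11723 genes) and 2 (634 genes), and at ZT20 1 of 9 (1346 of 11906 genes) and 1 (297 genes). Without overlap were 4 tested members at ZT0 (22.5% of genes tested), 1 at ZT4 (16%), 2 at ZT8 (7.43%), 3 at ZT12 (8.44%), 3 at ZT16 (16.8%) and 1 at ZT20 (11.9%).

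**Figure D1:**
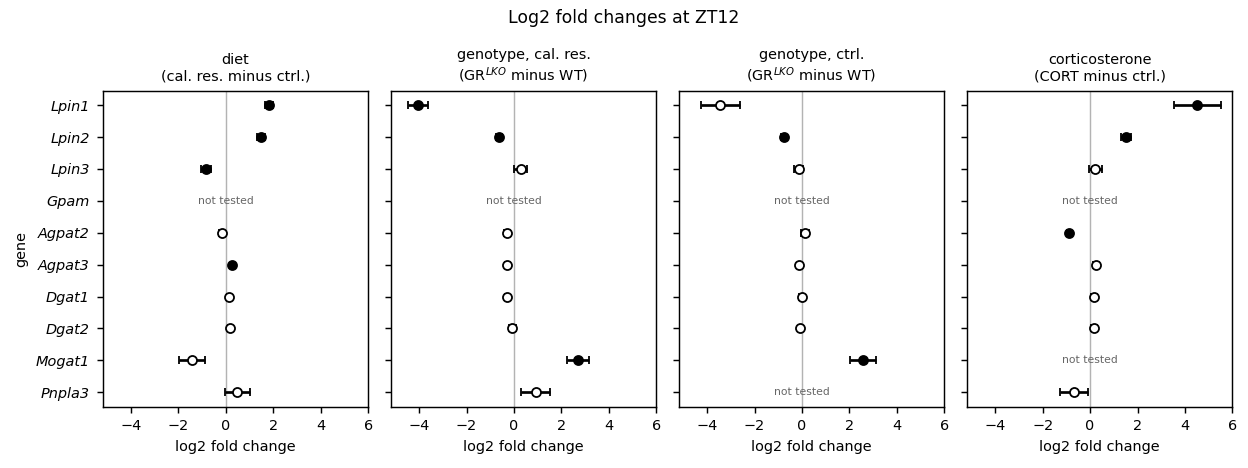
Log2 fold changes (points) with their SE (bars) of the members tested in the 4 ZT12 comparisons, filled where the adjusted p by edgeR was under 0.05. *Gpam* was tested in none of them, *Mogat1* not after CORT and *Pnpla3* not between genotypes on control diet. *Lpin1* lies at 1.81 for caloric restriction, 4.51 for CORT and -4.04 for GR LKO on caloric restriction.

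*Lpin1* (ENSMUSG00000020593, chr12:16535669-16610966, build mm10, minus strand) encodes lipin 1, a phosphatidic acid phosphatase and nuclear coregulator. In the diet experiment its level was 169, 203 and 248 CPM in the control livers and 597, 748 and 830 CPM in the livers on caloric restriction. All 3 restricted livers lay well above all 3 controls. It rose 3.51-fold (log2 fold change 1.81, SE 0.17, adjusted p 0.000418 by edgeR) and was called in each of 6 fits that left out 1 library. With the ZT12 WT livers of the time series in place of the diet experiment, the log2 fold change was 0.97 with an adjusted p of 0.0338. In those livers diet and set of libraries cannot be told apart. Alternatives gave adjusted p values from 1.96e-25 to 0.0338.

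*Lpin2* (ENSMUSG00000024052, chr17:71182560-71249817, build mm10, plus strand) encodes lipin 2, the lipin with the highest median level per kb in the livers of both time series. Its level was 354, 335 and 367 CPM in the control livers and 788, 925 and 1243 CPM on caloric restriction. The lowest restricted liver lay above every control. It rose 2.80-fold (log2 fold change 1.48, SE 0.16, adjusted p 0.000641) and was called in 6 of 6 fits without 1 library.

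*Lpin3* (ENSMUSG00000027412, chr2:160880670-160906002, build mm10, plus strand), which encodes the third lipin phosphatase, went the other way. It was at 5.91, 7.36 and 4.90 CPM in controls and at 3.66, 2.78 and 3.77 CPM on caloric restriction. Groups did not overlap, with every restricted liver below every control. Its log2 fold change was -0.83 (SE 0.20, adjusted p 0.0117), and it was called in 6 of 6 fits without 1 library.

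*Lpin1* and *Lpin2* also rose with CORT, with wide spread in *Lpin1*. In vehicle livers *Lpin1* was at 61.9, 6.65 and 4.46 CPM, and in CORT livers at 365, 710 and 581 CPM. The vehicle livers themselves were uneven, replicate 1 being far above the other 2, and no vehicle liver reached any CORT liver. The vehicle mean of 24.3 CPM lay below the WT control means at ZT12 of 207 CPM in the diet experiment and 305 CPM in the time series, which are separate sets of libraries scaled apart and were not tested against it. Its log2 fold change was 4.51 (SE 0.99, adjusted p 0.0374 by edgeR, from 0.00164 to 0.0660 over the alternatives). Without vehicle replicate 1 it was 6.63 with an adjusted p of 0.00511. The call was lost without vehicle replicate 2 (adjusted p 0.118), vehicle replicate 3 (0.0782), CORT replicate 1 (0.0719), CORT replicate 2 (0.0555) or CORT replicate 3 (0.0866).

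*Lpin2* after CORT was at 531, 760 and 590 CPM, against 275, 226 and 162 CPM with vehicle. No vehicle liver reached a CORT liver. It rose with a log2 fold change of 1.5 (SE 0.22, adjusted p 0.0111, from 6.96e-11 to 0.0331 over the alternatives), a call lost without vehicle replicate 2 (1.52, adjusted p 0.0619). Its vehicle mean of 221 CPM lay below the WT control means at ZT12, 352 CPM in the diet experiment and 466 CPM in the time series. The CORT mean of 627 CPM lay above both. These sets of libraries were scaled apart and were not tested against each other. *Lpin3* did not pass the test after CORT (log2 fold change 0.23, adjusted p 0.676), and its groups overlapped.

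On caloric restriction *Lpin1* was low in GR LKO livers at ZT12. WT livers were at 468, 620 and 719 CPM and GR LKO livers at 51.9, 16.4 and 41.6 CPM. Every GR LKO liver lay below every WT liver, and its mean was lower 16.4-fold. The log2 fold change was -4.04 (SE 0.42, adjusted p 0.00149, from 4.29e-14 to 0.00914 over the alternatives), and it was called in 6 of 6 fits without 1 library.

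At ZT8 on caloric restriction *Lpin1* was at 147, 292 and 366 CPM in WT and at 55.7, 50.9 and 27.7 CPM in GR LKO livers, again without overlap. It differed by a log2 fold change of -2.57 (SE 0.38, adjusted p 0.0188, from 4.69e-06 to 0.167 over the alternatives). The call was lost without WT replicate 3 (adjusted p 0.0560), GR LKO replicate 1 (0.0781), replicate 2 (0.0846) or replicate 3 (0.0683). At ZT4 the groups were also apart, at 80.8, 21.1 and 98.0 CPM in WT and 5.48, 0 and 9.47 CPM in GR LKO livers, but the difference did not pass the test (log2 fold change -3.71, adjusted p 0.168). At ZT0, ZT16 and ZT20 the 2 genotypes overlapped and *Lpin1* was not called.

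*Lpin2* was lower in GR LKO livers on caloric restriction by a smaller factor. At ZT12 it was at 1125, 1291 and 1014 CPM in WT and at 705, 661 and 839 CPM in GR LKO livers, with no overlap. The log2 fold change was -0.64 (SE 0.13, adjusted p 0.0178, from 1.81e-05 to 0.0743 over the alternatives), and the call was lost without WT replicate 2 (adjusted p 0.0504), GR LKO replicate 1 (0.0639) or GR LKO replicate 2 (0.0580). At ZT4 it was at 571, 510 and 555 CPM in WT and at 325, 362 and 350 CPM in GR LKO livers, the 3 livers of each genotype close together and far from the other 3. The log2 fold change there was -0.66 (SE 0.08, adjusted p 0.0290, from 9.78e-12 to 0.144 over the alternatives). That call was lost without WT replicate 1 (adjusted p 0.0751), WT replicate 2 (0.0807), GR LKO replicate 1 (0.0954), GR LKO replicate 2 (0.140) or GR LKO replicate 3 (0.101).

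At ZT8 *Lpin2* stood at 744, 1057 and 876 CPM in WT and at 596, 570 and 519 CPM in GR LKO livers on caloric restriction. Groups were apart, but the difference missed the threshold (log2 fold change -0.66, adjusted p 0.0608, from 6.02e-05 to 0.132 over the alternatives). Without WT replicate 1 it was called (-0.78, adjusted p 0.0357).

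On control diet *Lpin2* was lower in GR LKO livers at ZT12. It was at 482, 501, 401 and 479 CPM in WT and at 277, 232, 289 and 285 CPM in GR LKO livers. Each GR LKO liver lay below each WT liver. The log2 fold change was -0.78 (SE 0.10, adjusted p 0.0044, from 1.13e-11 to 0.0523 over the alternatives), and it was called in 8 of 8 fits without 1 library.

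*Lpin1* on control diet at ZT12 was at 173, 270, 324 and 453 CPM in WT and at 18.6, 3.41, 10.4 and 78.7 CPM in GR LKO livers. Groups did not overlap, and GR LKO replicate 4 was above the other 3 GR LKO livers. The difference missed the threshold in the fit of all 8 livers (log2 fold change -3.45, SE 0.82), and alternatives gave adjusted p values from 0.00456 to 0.0757. Without GR LKO replicate 4 it was called (-4.82, adjusted p 0.00945).

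At ZT16 on control diet *Lpin2* was at 269, 315, 258 and 263 CPM in WT and at 243, 145 and 144 CPM in GR LKO livers. Groups were apart, with GR LKO replicate 1 nearest to WT. It was not called (log2 fold change -0.64, adjusted p 0.141, from 0.0153 to 0.240 over the alternatives), except without GR LKO replicate 1 (-0.94, adjusted p 0.0152).

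Over the 12 comparisons of genotype, the mean of *Lpin1* was lower in GR LKO livers in 10, without overlap in 4, and called in 2. *Lpin2* was lower in 9, without overlap in 6, and called in 3. *Lpin3*, between 3.0 and 7.5 CPM in the control diet series and between 2.18 and 8.07 CPM on caloric restriction, overlapped between genotypes in all 12 comparisons and was called by neither edgeR nor DESeq2, with a lowest adjusted p of 0.519 by edgeR.

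Whether the genotype effect differed between diets was tested as an interaction at each time. Each diet was its own set of libraries, so a difference between diets cannot be told apart from a difference between sets. EdgeR called 0 of 9 tested members at each of the 6 times. Unadjusted p values under 0.05 numbered 4 at ZT0, 2 at ZT4, 2 at ZT8, 0 at ZT12, 1 at ZT16 and 1 at ZT20, and DESeq2 called 3, 1, 0, 0, 0 and 0. Of all genes, edgeR called 0% at ZT0, 0% at ZT4, 0.081% at ZT8, 1.01% at ZT12, 0.234% at ZT16 and 0% at ZT20. An unadjusted p under 0.05 was held by 1266 of 12455 genes at ZT0, 746 of 12362 at ZT4 and 1043 of 12345 at ZT8. It was held by 1742 of 12225 at ZT12, 1306 of 12385 at ZT16 and 878 of 12599 at ZT20. DESeq2 called 168, 37, 126, 473, 186 and 48 genes at these 6 times. At ZT12 the interaction was -0.57 on the log2 scale for *Lpin1* (adjusted p 0.864), 0.15 for *Lpin2* (adjusted p 0.744) and 0.13 for *Mogat1* (adjusted p 0.960). For *Lpin2* at ZT4 it was -1.05 (adjusted p 0.441), which DESeq2 called (0.00261, in a range from 0.00261 to 0.708 over the alternatives).

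Between times of day, the WT means of *Lpin1* had the largest ratio of highest to lowest among the 9 members other than *Gpam*. In WT livers on control diet its mean was highest at ZT12, at 305 CPM, and lowest at ZT4, at 7.64 CPM, a ratio of 39.9. On caloric restriction the WT mean was 602 CPM at ZT12 and 26.7 CPM at ZT20, a ratio of 22.5. GR LKO means peaked at 27.8 CPM at ZT12 on control diet and at 44.8 CPM at ZT8 on caloric restriction. In 6 livers *Lpin1* had 0 estimated counts, all at ZT0 or ZT4: WT replicate 3 and GR LKO replicates 1 and 2 at ZT0 and GR LKO replicate 3 at ZT4 on control diet, and GR LKO replicate 2 at ZT0 and at ZT4 on caloric restriction. Their floor of 3 counts lay between 0.164 and 0.262 CPM. Whether the quantification gave reads of *Lpin1* to another gene ID was not tested, which limits its lowest values and the ratios that rest on them.

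*Lpin2* means in WT livers were highest at ZT12 on both diets, at 466 CPM on control diet against 128 CPM at ZT0, and at 1143 CPM on caloric restriction against 158 CPM at ZT16. In GR LKO livers they ran from 177 CPM at ZT0 to 284 CPM at ZT8 on control diet and from 132 CPM at ZT16 to 735 CPM at ZT12 on caloric restriction. *Lpin3* had its WT mean on caloric restriction highest at ZT4, at 7.495 CPM, and lowest at ZT12, at 2.96 CPM, when *Lpin1* and *Lpin2* were highest.

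**Figure D2:**
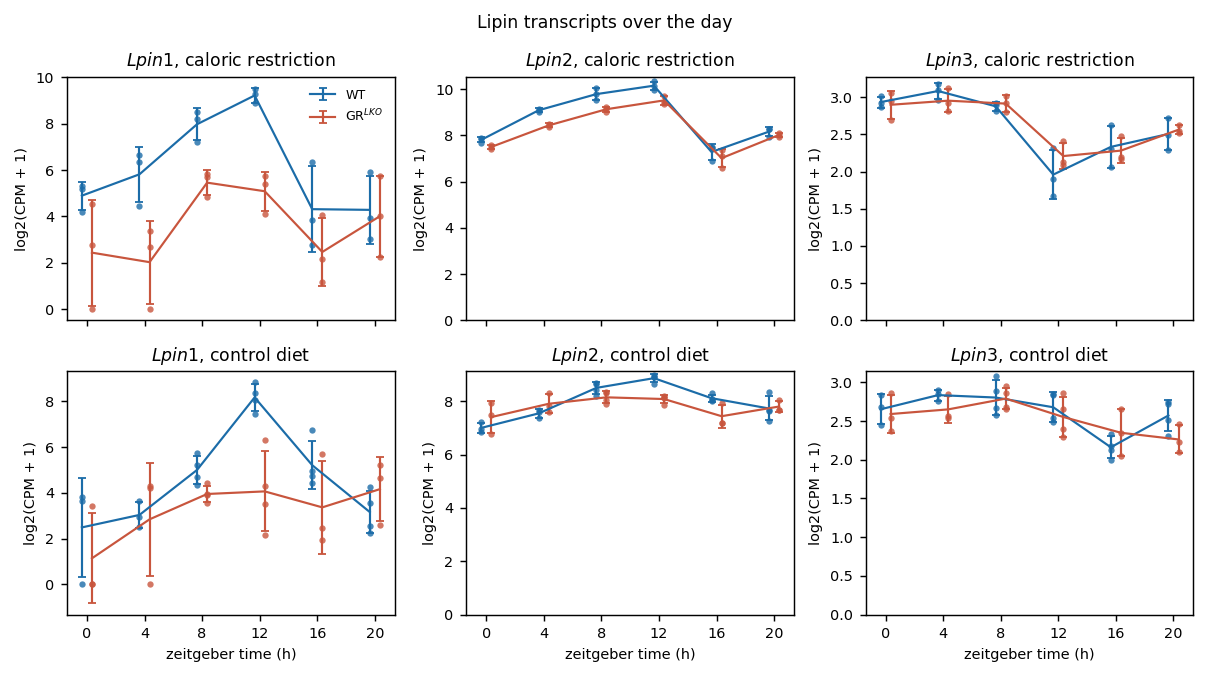
*Lpin1*, *Lpin2* and *Lpin3* by time of day as log2 of CPM plus 1, with points for single mice, lines and whiskers for the mean and SD, WT in blue and GR LKO in red, caloric restriction in the top row and control diet in the bottom row. At ZT12 on caloric restriction *Lpin1* lies between 468 and 719 CPM in WT and between 16.4 and 51.9 CPM in GR LKO livers.

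The promoter sequences of *Lpin1* and *Lpin2* are shown because both were called with diet, after CORT and between genotypes on caloric restriction at ZT12. Promoters were matched by symbol for 8 of the 10 members, in 12 windows upstream of a RefSeq start (RefSeq, build GRCm38.p6), and none was listed for *Dgat1* and *Dgat2*. Windows held 250 bases, apart from 5 that were cut at an annotated exon to between 79 and 233 bases. Motifs were searched on both strands: the GR motif AGAACA, a GR palindrome of AGAACA and TGTTCT with 3 bases between them, the E-box CACGTG, the FOXO motif GTAAACA and the cAMP element TGACG. Of all 32851 promoter windows of 250 bases, 16.1% held AGAACA, 0.00913% the palindrome, 6.02% CACGTG, 3.17% GTAAACA and 17.8% TGACG. Capitals mark the matches. In *Lpin1* (chr12:16610967-16611216, minus strand) they mark TGTTCT, which is AGAACA read on the other strand, at -163 to -158 from the start. In the first *Lpin2* window (chr17:71183282-71183531, plus strand) they mark CACGTG at -9 to -4, overlapping TGACG on the other strand at -12 to -8. In a later *Lpin2* start (chr17:71204404-71204653, plus strand) they mark TGTTCT at -203 to -198 and GTAAACA at -138 to -132. One more *Lpin2* window (chr17:71183745-71183977, plus strand, 233 bases) held none of the motifs and is not printed. TGTTCT was also found in a window of *Lpin3* at -245 to -240. In that of *Pnpla3*, TGACG stood at -46 to -42 and, on the other strand, at -43 to -39. These windows are not printed either. A match is a description of letters, not a site or a cause.
Lpin1: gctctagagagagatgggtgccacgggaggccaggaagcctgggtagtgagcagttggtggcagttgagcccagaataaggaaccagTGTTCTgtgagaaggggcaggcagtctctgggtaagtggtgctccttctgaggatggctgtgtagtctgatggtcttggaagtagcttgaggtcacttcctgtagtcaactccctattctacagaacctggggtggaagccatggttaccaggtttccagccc
Lpin2 first start: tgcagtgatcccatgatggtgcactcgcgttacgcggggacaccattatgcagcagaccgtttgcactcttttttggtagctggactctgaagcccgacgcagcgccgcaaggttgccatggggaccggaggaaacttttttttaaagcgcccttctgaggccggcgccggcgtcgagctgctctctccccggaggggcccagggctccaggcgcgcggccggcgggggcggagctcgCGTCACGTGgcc
Lpin2 later start: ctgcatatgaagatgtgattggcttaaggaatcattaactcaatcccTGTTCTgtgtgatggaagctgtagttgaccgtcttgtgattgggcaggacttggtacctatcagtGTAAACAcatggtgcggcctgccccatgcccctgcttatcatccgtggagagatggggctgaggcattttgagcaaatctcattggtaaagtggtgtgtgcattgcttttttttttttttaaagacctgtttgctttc

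Among the acyltransferases of the first steps, *Agpat2* changed with CORT and *Agpat3* with diet. *Agpat2* (ENSMUSG00000026922, chr2:26593057-26604417, build mm10, minus strand), which makes phosphatidic acid, was at 261, 236 and 252 CPM with vehicle and at 124, 142 and 138 CPM with CORT. The groups lay far apart, with little spread in each. It fell with a log2 fold change of -0.89 (SE 0.09, adjusted p 0.00361, from 6.72e-14 to 0.0275 over the alternatives) and was called in 6 of 6 fits without 1 library. Its vehicle mean of 249 CPM lay above the WT control means at ZT12, 151 CPM in the diet experiment and 159 CPM in the time series. The CORT mean was 135 CPM. These sets of libraries were scaled apart and were not tested against each other.

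With diet, *Agpat2* was at 146, 153 and 156 CPM in controls and at 151, 123 and 126 CPM on caloric restriction, where replicate 1 lay among the controls. It was not called (log2 fold change -0.18, adjusted p 0.140) except without caloric restriction replicate 1 (-0.27, adjusted p 0.0162). Alternatives gave adjusted p values from 0.144 to 0.371. Between genotypes *Agpat2* ran from 64.9 to 330 CPM on caloric restriction and from 124 to 323 CPM on control diet. On control diet its mean was higher in GR LKO livers at 5 of 6 times and lower at 1, without overlap in 2, each higher. On caloric restriction it was lower in GR LKO livers at 5 and higher at 1, without overlap in 1, which was lower. In the 12 comparisons neither edgeR (lowest adjusted p 0.183) nor DESeq2 called it. At ZT0 its interaction with diet was -0.56 (adjusted p 0.340), which DESeq2 called (0.00654, in a range from 0.00654 to 0.429 over the alternatives).

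*Agpat3* (ENSMUSG00000001211, chr10:78269178-78352489, build mm10, minus strand), an acyltransferase of the same family, varied least through the day on control diet, with a ratio of highest to lowest mean of 1.17 in WT livers, the lowest among members other than *Gpam*. In the diet experiment it was at 250, 248 and 229 CPM in controls and at 286, 303 and 291 CPM on caloric restriction, without overlap. It rose by a small amount (log2 fold change 0.27, SE 0.07, adjusted p 0.0165, from 0.000641 to 0.0475 over the alternatives). The call was lost without control replicate 2 (adjusted p 0.0504), control replicate 3 (0.0557) or caloric restriction replicate 2 (0.0619).

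On caloric restriction *Agpat3* ran from 172 to 250 CPM in WT livers (median 207) and from 143 to 213 CPM in GR LKO livers (median 174). Its mean was lower in GR LKO livers at all 6 times there, without overlap at 5 of them, yet edgeR called it at none of them, with adjusted p values from 0.135 to 0.471 and an unadjusted p under 0.05 at ZT0, ZT12, ZT16 and ZT20, and DESeq2 called 1. The fit of all caloric restriction livers together called 3, among them ZT12 (adjusted p 0.0144 against 0.135 in the fit of ZT12 alone, with alternatives from 0.0144 to 0.254).

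*Dgat1* and *Dgat2*, the diacylglycerol acyltransferases, were called by edgeR in none of the 14 comparisons of 2 groups, and DESeq2 called *Dgat2* in 2 of the 12 between genotypes. *Dgat2* (ENSMUSG00000030747, chr7:99153658-99182719, build mm10, minus strand) encodes an acyltransferase of the endoplasmic reticulum and lipid droplets that uses newly made fatty acids. It was at 574, 566 and 623 CPM in controls and at 641, 684 and 657 CPM on caloric restriction, without overlap, and was not called (log2 fold change 0.17, adjusted p 0.0982). At ZT12 it was not called after CORT (0.17, adjusted p 0.439) or between genotypes on caloric restriction (-0.06, adjusted p 0.793).

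Late in the dark phase and at lights on, *Dgat2* was low in GR LKO livers on caloric restriction. At ZT20 it was at 442, 385 and 395 CPM in WT and at 233, 256 and 330 CPM in GR LKO livers. The genotypes were apart, and replicate 3 was the GR LKO liver nearest to WT. The difference was not called (log2 fold change -0.57, adjusted p 0.0992, from 0.00282 to 0.137 over the alternatives) but was without GR LKO replicate 3 (-0.73, adjusted p 0.0374). At ZT0 it was at 314, 394 and 357 CPM in WT and at 270, 272 and 265 CPM in GR LKO livers, again apart (log2 fold change -0.39, adjusted p 0.128, from 0.00269 to 0.265 over the alternatives). On control diet at ZT0 the order was opposite, 319, 301 and 242 CPM in WT and 386, 446 and 348 CPM in GR LKO livers, without overlap. The interaction at ZT0 was -0.83 (adjusted p 0.339), which DESeq2 called (0.000994, in a range from 0.000994 to 0.413 over the alternatives).

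*Dgat1* (ENSMUSG00000022555, chr15:76502015-76511953, build mm10, minus strand), the other diacylglycerol acyltransferase, ran from 14.3 to 24.8 CPM in the control diet series and from 14.2 to 28.5 CPM on caloric restriction. At ZT12 on caloric restriction it was at 25.9, 27.3 and 28.5 CPM in WT and at 22.2, 21.7 and 23.3 CPM in GR LKO livers. These groups did not overlap, and the difference just missed the threshold (log2 fold change -0.29, SE 0.08, adjusted p 0.0509). For diet its log2 fold change was 0.12 (adjusted p 0.223), and with the time series livers it was called (adjusted p 0.0410, in a range from 0.0410 to 0.361 over the alternatives). Diet and set of libraries cannot be told apart in the time series livers. After CORT the log2 fold change of *Dgat1* was 0.18 (adjusted p 0.405).

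*Mogat1* (ENSMUSG00000012187, chr1:78510991-78538173, build mm10, plus strand), a monoacylglycerol acyltransferase known to rise in fatty liver, was scarce in all groups and higher in GR LKO livers. On caloric restriction it ran from 0.0576 to 0.510 CPM in WT livers (median 0.193) and from 0.753 to 1.74 CPM in GR LKO livers (median 1.13), so that the lowest GR LKO liver of any time lay above the highest WT liver. On control diet it ran from 0.0750 to 1.86 CPM in WT (median 0.516) and from 0.604 to 3.86 CPM in GR LKO livers (median 1.61), with overlap. Its mean was higher in GR LKO livers in all 12 comparisons of genotype, without overlap in 9, and edgeR called 4 and DESeq2 7. At all 6 times on caloric restriction, and at ZT12 on control diet, no WT liver reached the level of the count filter (10 counts in a library of median size), so *Mogat1* entered these tests through the GR LKO livers alone and had to differ there. Its calls in them are no support beyond the values themselves. With no filter it was called at ZT12 (adjusted p 0.0179) and ZT16 (0.0186) on caloric restriction, and not at ZT8 there (0.0655) or at ZT12 on control diet (0.0519).

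At ZT12 on caloric restriction *Mogat1* was at 0.0702, 0.209 and 0.168 CPM in WT and at 0.805, 1.07 and 1.22 CPM in GR LKO livers. Each GR LKO liver exceeded each WT liver. The WT values rest on 1, 3 and 3 estimated counts, at or under the floor of 3, and those of GR LKO livers on 14 or more, so the size of the fold is uncertain. It was higher by a log2 fold change of 2.71 (SE 0.46, adjusted p 0.00956, from 0.000185 to 0.0342 over the alternatives) and was called in 6 of 6 fits without 1 library. Those fits used the same count filter, so their calls add no support. At ZT16 it was at 0.267, 0.144 and 0.177 CPM in WT and at 1.74, 1.42 and 0.884 CPM in GR LKO livers, without overlap, the WT values from 5, 2 and 3 counts. The estimate was a log2 fold change of 2.72 (SE 0.45, adjusted p 0.0173, from 0.000323 to 0.0490 over the alternatives). This call was lost without WT replicate 1 (adjusted p 0.0600), WT replicate 2 (0.0619), WT replicate 3 (0.0753), GR LKO replicate 1 (0.0612) or GR LKO replicate 2 (0.0617).

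*Mogat1* at ZT8 on caloric restriction was at 0.395, 0.163 and 0.163 CPM in WT and at 1.34, 1.00 and 1.10 CPM in GR LKO livers, again apart, with 7, 3 and 3 counts in WT. Its log2 fold change was 2.24 (SE 0.44, adjusted p 0.0485, from 0.00268 to 0.109 over the alternatives). Leaving out WT replicate 2 (adjusted p 0.105), WT replicate 3 (0.130), GR LKO replicate 1 (0.194), GR LKO replicate 2 (0.131) or GR LKO replicate 3 (0.174) ended the call. At ZT0, ZT4 and ZT20 the groups were apart too, with log2 fold changes of 2.41 (adjusted p 0.116), 1.46 (adjusted p 0.135) and 2.51 (adjusted p 0.0654).

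On control diet at ZT12 *Mogat1* was at 0.283, 0.152, 0.399 and 0.319 CPM in WT and at 1.31, 0.913, 3.65 and 1.27 CPM in GR LKO livers. Groups did not overlap, GR LKO replicate 3 stood above the rest, and the WT livers held 3, 2, 5.01 and 4 estimated counts. The log2 fold change was 2.58 (SE 0.54, adjusted p 0.0488, from 0.00469 to 0.0519 over the alternatives), and without GR LKO replicate 3 it was 1.98 with an adjusted p of 0.0557. The call was also lost without WT replicate 1 (adjusted p 0.11), WT replicate 2 (0.142), WT replicate 3 (0.104), WT replicate 4 (0.11), GR LKO replicate 1 (0.0876) or GR LKO replicate 4 (0.0787).

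In that GR LKO replicate 3, adipocyte markers were also high. The 8 listed markers summed to 104 CPM in it, against 18.9, 18.3 and 22.2 CPM in the other 3 GR LKO livers and 17.5, 12.7, 14.1 and 21.0 CPM in WT livers. Of the 4 markers tested there, 1 was called, higher in GR LKO (2.08% of all genes were called). *Cidec* reached up to 50.1 CPM and *Cfd* up to 49.1 CPM among all libraries, whereas *Plin1* was at 0 in 90 of 90 libraries, *Lep* in 89 and *Adipoq* in 62. At other times 1 or 2 of the tested adipocyte markers were called higher in GR LKO livers, and the rest were not called. On caloric restriction edgeR called 1 of 3 at ZT4 (0.69% of all genes), ZT8 (2.55%), ZT16 (4.54%) and ZT20 (1.47%). It called 0 of 4 at ZT0 (2 at an unadjusted p under 0.05, 2 by DESeq2) and 0 of 3 at ZT12 (1 and 0). The median log2 fold change of the tested markers was -0.0021 at ZT4, 0.13 at ZT8, -0.12 at ZT16 and 0.39 at ZT20. On control diet edgeR called 1 of 4 at ZT0 (0.536% of all genes), ZT4 (0.195%) and ZT20 (0.42%), and 2 of 4 at ZT8 (1.43%). At ZT16 it called 0 of 4 (1 at an unadjusted p under 0.05, 0 by DESeq2). Medians there were 1.09 at ZT0, 2.18 at ZT4, 1.57 at ZT8, 0.59 at ZT16 and 1.67 at ZT20. Sums of the 8 adipocyte markers ran from 9.46 to 28.3 CPM in WT (median 17.3) and from 13.1 to 104 CPM in GR LKO livers (median 37.5) on control diet, and from 8.45 to 15.2 CPM (median 12.2) and from 9.65 to 33.4 CPM (median 14.8) on caloric restriction. Their part in the *Mogat1* values was not tested.

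In the diet experiment *Mogat1* was at 0.476, 1.10 and 0.448 CPM in controls and at 0.397, 0.234 and 0.109 CPM on caloric restriction, without overlap. It was not called (log2 fold change -1.44, SE 0.55, adjusted p 0.0641) except without caloric restriction replicate 1 (-1.94, adjusted p 0.0399). After CORT it was too low to be tested, at 0.789, 0.373 and 0.0686 CPM with vehicle and 0.227, 0.332 and 0.204 CPM with CORT. *Mogat1* shares 200 exon bases with *BC035947* on the opposite strand, so part of its counts is uncertain.

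*Mogat1* sequence upstream of its RefSeq start is shown because its level was higher in GR LKO livers without overlap in 9 comparisons. Its window (chr1:78510810-78510990, plus strand, RefSeq, build GRCm38.p6) holds 181 bases outside annotated exons, and none of the motifs searched was found in it, which says only that these letters are absent from this window. In the same stretch of all promoters, 12.1% held AGAACA, 0.00913% the palindrome, 3.72% CACGTG, 2.38% GTAAACA and 10.8% TGACG.
Mogat1: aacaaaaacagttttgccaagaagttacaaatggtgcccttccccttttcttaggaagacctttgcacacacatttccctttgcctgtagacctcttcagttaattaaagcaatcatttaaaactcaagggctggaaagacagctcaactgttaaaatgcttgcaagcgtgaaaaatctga

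*Pnpla3* (ENSMUSG00000041653, chr15:84167837-84187236, build mm10, plus strand), a lipid droplet protein with lipase and acyltransferase activity whose human form is tied to fatty liver, was low in WT livers and higher on average in GR LKO livers. On control diet at ZT20 it was at 0.406, 0.714, 2.70 and 2.31 CPM in WT and at 22.3, 6.98 and 5.62 CPM in GR LKO livers. At ZT16 it was at 0.183, 0.900, 2.10 and 1.8 CPM in WT and at 19.2, 2.72 and 4.50 CPM in GR LKO livers. Groups did not overlap at either time, and replicate 1 was the highest GR LKO liver at both.

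EdgeR did not call *Pnpla3* at ZT20 (log2 fold change 2.95, SE 0.70, adjusted p 0.164, from 0.00265 to 0.541 over the alternatives) or at ZT16 (2.85, SE 0.81, adjusted p 0.131, from 0.00826 to 0.357), and DESeq2 called both. Its mean was higher in GR LKO livers in all 12 comparisons, with 10 tested, 3 without overlap and 0 called by edgeR. On caloric restriction *Pnpla3* ran from 0.168 to 7.16 CPM, with log2 fold changes from 0.45 to 1.27 between genotypes. The interaction with diet was -2.40 at ZT16 (adjusted p 0.409) and -2.25 at ZT20 (adjusted p 0.705). Diet (log2 fold change 0.48, adjusted p 0.480) and CORT (-0.67, adjusted p 0.535) gave no call at ZT12. *Pnpla3* shares 105 exon bases with *Gm49513* on the same strand.

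Rhythms were tested in each group by JTK on variance-stabilised values with a period of 24 h. In WT livers on control diet 7 of 10 members were called, where 27.3% of genes were: *Lpin1* (adjusted p 0.000164), *Lpin2* (2.75e-05), *Lpin3* (0.0150), *Agpat2* (5.93e-05), *Dgat1* (0.00155), *Dgat2* (8.08e-06) and *Pnpla3* (0.0427). In GR LKO livers on control diet it was 5 (22.7% of genes): *Agpat2* (0.000818), *Agpat3* (0.0336), *Dgat1* (0.0140), *Dgat2* (0.0111) and *Pnpla3* (0.00532). On caloric restriction *Lpin3*, *Agpat2* and *Dgat2* were called in both genotypes, 3 of 10 in WT (21.7% of genes) and 3 of 10 in GR LKO (19.8%). Their adjusted p values were 0.00407, 0.00218 and 0.00407 in WT and 0.0136, 0.00237 and 0.0178 in GR LKO livers.

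These counts were lower without the mice of any 1 replicate number, which takes out up to 1 mouse at each time. Without replicate 1, 2, 3 or 4 the count was 6, 5, 4 or 6 in WT and 3, 1, 1 or 4 in GR LKO livers on control diet. On caloric restriction it was 1, 0 or 0 in WT and 0, 0 or 0 in GR LKO livers without replicate 1, 2 or 3. An edgeR F test of any difference between times, on all mice, called 8 members in WT (64.3% of genes) and 7 in GR LKO livers (60.5%) on caloric restriction. It called *Lpin2* in both genotypes (adjusted p 1.86e-08 in WT, 3.29e-08 in GR LKO) and *Lpin1* in WT (0.000505), not in GR LKO livers (0.108). JTK had missed the threshold for *Lpin2* (adjusted p 0.161 in WT, 0.207 in GR LKO) and for *Lpin1* in WT (0.0551). So the lack of a JTK call there does not show that these levels were flat.

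A difference of rhythm between genotypes was tested by limma. It called 0 of 10 members on caloric restriction, where 0.659% of genes were called. There 2 had an unadjusted p under 0.05 (1575 of 13041 genes), and an edgeR test of genotype by time called 0 (696 genes). The 2 were *Dgat2* (unadjusted p 0.0219 by limma) and *Gpam* (0.0419), which had 0 counts in most of these libraries. On control diet *Gpam* was not tested, and limma called 0 of the others (0.366% of genes). Of these, 3 had an unadjusted p under 0.05 (1261 of 12834 genes), and edgeR called 0 (77 genes). *Lpin2* on control diet came nearest (adjusted p 0.0538, unadjusted 0.000205), and *Lpin1* had an adjusted p of 0.373 there and 0.574 on caloric restriction. So the call of *Lpin1* and *Lpin2* as rhythmic in WT and not in GR LKO livers on control diet does not show a difference of rhythm.

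In WT livers mean *Agpat2* was highest in the dark phase and mean *Dgat2* at lights off. WT means of *Agpat2* were highest at ZT16 on caloric restriction, at 306 CPM against 67.5 CPM at ZT8, and at ZT20 on control diet, at 277 CPM against 128 CPM at ZT8. GR LKO means ran from 71.9 CPM at ZT8 to 287 CPM at ZT16 on caloric restriction and from 138 CPM at ZT8 to 294 CPM at ZT0 on control diet. *Dgat2* means in WT livers were highest at ZT12 on both diets, at 592 and 589 CPM (restricted, then control), and lowest at ZT0, at 355 and 287 CPM. In GR LKO livers they ran from 269 CPM at ZT0 to 609 CPM at ZT8 on caloric restriction and from 338 CPM at ZT4 to 594 CPM at ZT16 on control diet. *Pnpla3* means in GR LKO livers on control diet ran from 0.646 CPM at ZT12 to 11.6 CPM at ZT20, and in WT livers from 0.138 CPM at ZT8 to 1.53 CPM at ZT20.

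**Figure D3:**
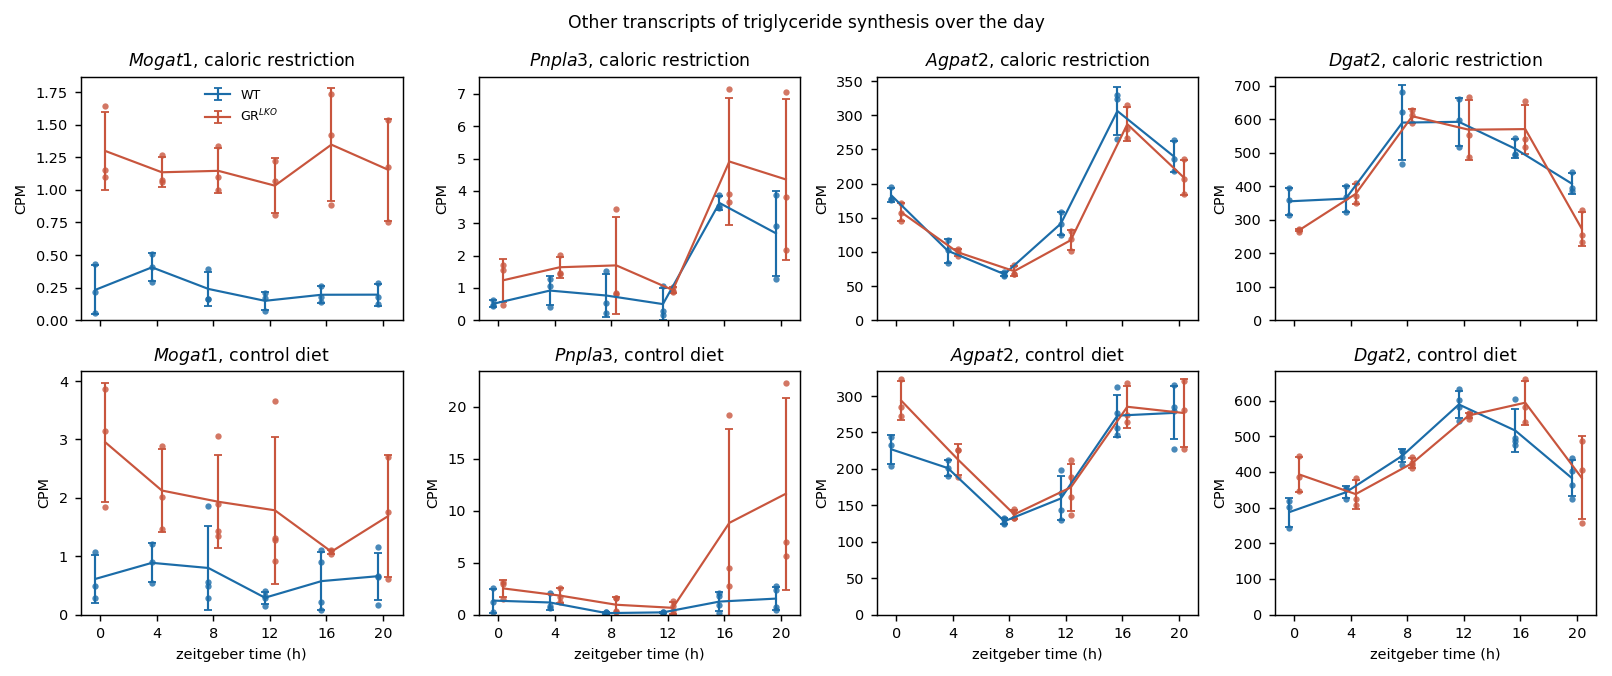
*Mogat1*, *Pnpla3*, *Agpat2* and *Dgat2* by time of day in CPM, with points for single mice, lines and whiskers for the mean and SD, WT in blue and GR LKO in red, caloric restriction in the top row and control diet in the bottom row. *Mogat1* on caloric restriction lies between 0.753 and 1.74 CPM in GR LKO livers, above all WT livers, which reach 0.510 CPM.

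Other genes of the route were taken from a list of 24. In the diet experiment 22 were tested and 13 called, 8 higher and 5 lower on caloric restriction, where 47.1% of all genes were called, with a median log2 fold change of 0.07. *Gpat3*, a glycerol 3-phosphate acyltransferase of the endoplasmic reticulum, rose (log2 fold change 1.07, SE 0.16, adjusted p 0.0021), and so did *Plpp1*, a lipid phosphate phosphatase outside the lipin family (1.06, SE 0.22, adjusted p 0.00758). *Aqp9*, the glycerol channel of hepatocytes, fell (-0.85, SE 0.13, adjusted p 0.00191), as did *Gpd1*, which makes glycerol 3-phosphate in the cytosol (-0.81, SE 0.12, adjusted p 0.00184). With the time series livers *Gpat3* was at 0.40 and no longer called (adjusted p 0.596, in a range from 5.74e-07 to 0.596 over the alternatives), and *Aqp9* was at -0.45 and still called (adjusted p 0.00322, in a range from 1.27e-09 to 0.00366). Both values from the time series mix diet with set of libraries.

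Between genotypes on caloric restriction at ZT12, 7 of 22 tested genes of the list were called (6 with higher and 1 with lower levels after loss of GR), against 15.3% of all genes, with a median of 0.11. *Gpat3* was again higher (log2 fold change 1.68, SE 0.26, adjusted p 0.00742), with means of 17.0 ± 4.42 CPM for the knockout against 5.29 ± 1.48 CPM for WT livers (SD, n = 3). *Pcyt1a*, which feeds phosphatidylcholine synthesis (0.63, SE 0.11, adjusted p 0.0112), *Gpd1l* (0.59, SE 0.08, adjusted p 0.00376) and the acyltransferase *Lclat1* (0.57, SE 0.10, adjusted p 0.00968) were higher too, all 4 called in 6 of 6 fits without 1 library. On control diet at ZT12 edgeR called 0 of 21 (2.08% of all genes), with a median of 0.08. There 5 had an unadjusted p under 0.05, against 1444 of 11428 genes, and DESeq2 called 2, against 569 genes.

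After CORT 4 of 21 tested genes of the list were called, 2 higher and 2 lower, against 8.11% of all genes, with a median of -0.06. *Gpat4*, another glycerol 3-phosphate acyltransferase, rose (log2 fold change 0.79, SE 0.11, adjusted p 0.0101), with means of 301 ± 14.4 CPM with CORT and 174 ± 21.2 CPM with vehicle (SD, n = 3), a call lost without vehicle replicate 2 (0.0594). *Plpp2* rose (0.78, adjusted p 0.0176), a call lost without vehicle replicate 1 (0.0586), vehicle replicate 2 (0.0747), CORT replicate 1 (0.0558) or CORT replicate 3 (0.0602). *Agpat1* fell (-0.67, adjusted p 0.0494), a call lost without vehicle replicate 1 (0.136), 2 (0.0980) or 3 (0.0979) or CORT replicate 1 (0.0839), 2 (0.0757) or 3 (0.109). *Selenoi*, which makes phosphatidylethanolamine, fell (-0.58, adjusted p 0.0415), a call lost without vehicle replicate 2 (0.140) or 3 (0.112) or CORT replicate 1 (0.125) or 3 (0.122).

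Markers of hepatocytes moved with diet and genotype at ZT12. Their 7 genes summed to 171626, 174206 and 176993 CPM in WT and 127683, 137767 and 119040 CPM in GR LKO livers on caloric restriction, with 5 of 7 called lower. On control diet the sums were 86813, 102452, 86518 and 96441 CPM in WT and 77178, 69561, 78815 and 89919 CPM in GR LKO livers, with 3 of 7 called lower. In the diet experiment they were 90582, 92604 and 94568 CPM in controls and 160831, 162434 and 165245 CPM on caloric restriction, with 3 of 7 called higher. In the CORT experiment, with 2 of 7 called higher, they were 102962, 97722 and 101392 CPM with vehicle and 104585, 106314 and 94662 CPM with CORT. *Alb* was the most abundant of them, with a median of 74480 CPM over the 90 libraries and a lowest level of 47154 CPM. Their part in the changes of the lipins and *Mogat1* was not tested.

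Kupffer and myeloid markers summed to 37.3, 62.2 and 45.8 CPM in WT and 102, 81.9 and 141 CPM in GR LKO livers on caloric restriction at ZT12, with 2 of 7 called higher, and *Clec4f* was the most abundant of them. Endothelial markers summed to 116, 149 and 152 CPM in controls and 194, 194 and 222 CPM on caloric restriction in the diet experiment, with 4 of 6 called higher. At ZT12 on caloric restriction, exocrine pancreas markers summed to 527 CPM in WT replicate 3, against 0.140 and 0.558 CPM in the other WT livers, with *Prss1* at 0 in all 90 libraries. WT replicate 2 on control diet at ZT16 also stood apart, at 263 CPM of pancreas markers and 1084 CPM of erythrocyte markers. Skeletal muscle markers summed to 91.0 CPM in GR LKO replicate 1 on caloric restriction at ZT12. Erythrocyte markers were highest in GR LKO replicate 2 on caloric restriction at ZT0, at 2776 CPM, where the 18 GR LKO livers on that diet had a median of 335 CPM. The part of these markers in the results was not tested.

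Of the remaining marker genes, the diet experiment had 1 adipocyte marker called higher and 2 lower of 3 tested, 2 cholangiocyte markers higher of 4, 1 erythrocyte marker lower of 3, 1 lymphocyte marker lower of 2, 2 stellate markers higher and 1 lower of 6, and 0 of 7 Kupffer and myeloid markers (edgeR, with 1 at an unadjusted p under 0.05 and 0 by DESeq2). CORT gave 1 cholangiocyte marker lower of 4, 1 endothelial and 1 stellate marker lower of 6 each and 1 Kupffer and myeloid marker higher of 7, with 0 of 3 adipocyte markers (0 at an unadjusted p under 0.05, 0 by DESeq2), 0 of 3 erythrocyte markers (3 and 2) and 0 of 1 neutrophil marker (1 and 0) by edgeR. Genotype on caloric restriction at ZT12 gave 1 endothelial marker higher of 6, 1 erythrocyte marker higher of 3 and 1 cholangiocyte marker lower of 3, with 0 of 3 adipocyte markers (1 at an unadjusted p under 0.05, 0 by DESeq2) and 0 of 5 stellate markers (0 and 0) by edgeR. On control diet at ZT12 edgeR called 0 endothelial, stellate, Kupffer and myeloid, cholangiocyte and erythrocyte markers, with 1 erythrocyte marker at an unadjusted p under 0.05 and 0 by DESeq2. Markers of neutrophils, exocrine pancreas and skeletal muscle were too low at ZT12 to be tested by edgeR, apart from 1 neutrophil gene in the CORT experiment, and DESeq2 called 1 pancreas marker between genotypes on control diet. At ZT12 lymphocyte markers were tested by edgeR in the diet experiment alone. *Epcam* was at 0 in 88 libraries and *Ly6g* in 87.

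Genes among the 5 most like each member are named here, found by Pearson's r of mean log2 CPM over the 12 groups on caloric restriction, among 8873 genes, as a description. For *Lpin1* they were *Mrps24* (r 0.905), *Sdhd* (0.897), *Fbxo31* (0.893), *Ppia* (0.884) and *Slc1a2* (0.882). For *Lpin2* they were *Cobll1* (r 0.973), *Hnrnpdl* (0.972), *Nfkbia* (0.962), *Elf2* (0.961) and *Klhl21* (0.960), and for *Lpin3* *Mta3* (0.974), *Zbtb22* (0.967), *Ppox* (0.953) and *Serinc2* (0.940). *Agpat2* was closest to *Caprin1* (r 0.988), *Rtp3* (0.986), *Mtmr4* (0.985), *Zfp706* (0.983) and *Uros* (0.980), and *Agpat3* to *Rnf10* (0.957), *Mocs1* (0.951), *Rnf149* (0.947), *Cab39* (0.931) and *mt-Nd2* (0.917). *Dgat1* was closest to *Atp5j2* (r 0.922), *Uqcrfs1* (0.908), *Paxbp1* (0.902), *Gls2* (0.893) and *Rsl24d1* (0.893), and *Dgat2* to *Sbk1* (0.940), *Cdk18* (0.937), *Rapgef1* (0.932), *Shpk* (0.932) and *Abcf1* (0.928). *Mogat1* was closest to *Acaa1b* (r 0.968), *Fam213a* (0.967), *Rdh16* (0.961) and *Pisd* (0.960), and *Pnpla3* to *Myo5b* (0.954), *Galnt10* (0.935), *Htt* (0.932), *Asph* (0.923) and *Tgm2* (0.911). *Gpam*, with a mean of 0.202 CPM in these groups, gave *Cops2* (r 0.845), *Qrich1* (0.812), *Abca5* (0.804), *Slc25a22* (0.786) and *Lsm14a* (0.779), values that rest on few counts.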

How the data were processed

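Single livers were sequenced as polyadenylated RNA. The authors deposited estimated counts per gene, which the submitters' notes trace to FastQC, MultiQC, Salmon and build mm10, and these expected counts were rounded to whole numbers for the tests. Of 27654 gene IDs, 27244 had a symbol, and the 410 without one held 0.107% of counts. Of 102 pairs of libraries within groups, 0 were identical. Variance-stabilised values deposited for the CORT experiment were not used.

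Groups were compared with edgeR 4.0.16 in R 4.3.3 (quasi-likelihood F test, TMM factors, filterByExpr with a minimum count of 10), each comparison on its own libraries, and called at a Benjamini-Hochberg adjusted p under 0.05 over all genes tested. Rhythms were tested by JTK (24 h period, 6 offsets in steps of 4 h) and their difference by limma 3.58.1. The edgeR, JTK and limma tests were also run on simulated data, and that outcome is not reported here. Alternatives were DESeq2 1.42.0, RLE factors, no filter, a replicate block, each library left out (for rhythms, each replicate number), a joint fit of all times, log2 CPM with a prior count of 2, an edgeR test of time, and the time series livers for diet. In the last of these, diet and set of libraries cannot be told apart, which also holds for the ranges that include it. Libraries held 10057544 to 39492146 estimated counts, and the floor was 3 counts per library.

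Coordinates and exon lengths came from a GENCODE annotation of the same build. All 10 members were named, with *Nr3c1*, and of 24 other genes of the route up to 4 called with the largest log2 fold change in each ZT12 comparison. The 5 most like genes had a mean of at least 5 CPM. Some of them are not reported here. Marker lists covered hepatocytes, adipocytes, Kupffer and myeloid cells, endothelial, stellate and cholangiocyte cells, lymphocytes, neutrophils, exocrine pancreas, erythrocytes and skeletal muscle. The members and lists were chosen with earlier results of these data known.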

Additional observations from a re-analysis of the deposited data

Results flagged for a closer look

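In the 6 groups of 4 mice, each on control diet, 57 tests asked whether 1 liver stood apart from the other 3, and 5 did. *Gpam* could not be tested in groups whose 4 livers were all at 0. Chance picks about 1 in 20 groups. *Lpin1* was at 106 CPM in WT replicate 3 at ZT16, with the others from 20.3 to 29.7 CPM. *Dgat2* was at 605 CPM in WT replicate 1 at ZT16, with the others from 477 to 496 CPM. *Mogat1* was at 3.65 CPM in GR LKO replicate 3 at ZT12, with the others from 0.913 to 1.31 CPM. *Gpam* was at 1.41 CPM (21.1 estimated counts) in GR LKO replicate 4 at ZT12 and at 0.3002 CPM (3.68 estimated counts) in WT replicate 3 at ZT16, with the others at 0. Any value beside 3 at 0 meets this test, so it says nothing of these 2, and the lower lies near the floor of 3 counts.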

How the results depend on the processing

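Under the alternatives run, the direction of a called value was reversed in 0 cases. DESeq2 kept 172 of the log2 fold changes of members and named genes on their side of the threshold and called 17 more, RLE factors kept all 189, no filter kept 186 and lost 3 calls, the replicate block kept 176, lost 9 and turned the sign of 4 uncalled values, the joint fit kept 96, gained 11, lost 1 and turned 2, the time series livers kept 8, gained 1, lost 1 and turned 1, and leaving out 1 library kept 1405, lost 53 calls, gained 6 and turned the sign of 97 uncalled values.

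Counts of called members differed under these alternatives, and the cause was not tested. DESeq2 called 3 on caloric restriction at ZT0, 2 at ZT16 and 2 at ZT20, 1 on control diet at ZT0, 1 at ZT8, 2 at ZT16 and 1 at ZT20, and 3 interactions at ZT0 and 1 at ZT4. The joint fit called 1 at ZT0, 2 at ZT16 and 3 at ZT20 on caloric restriction, and 1 at ZT0, 1 at ZT16 and 1 at ZT20 on control diet. No filter gave 1 at ZT8 on caloric restriction and 1 at ZT12 on control diet. With the replicate block the count was 0 at ZT4 and 0 at ZT8 on caloric restriction and 1 at ZT12 on control diet. The edgeR test of time called 8 members in WT and 7 in GR LKO on caloric restriction.

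Without 1 library the counts ran from 1 to 3 for CORT, 0 to 1 at ZT4, 0 to 3 at ZT8, 0 to 1 at ZT16 and 0 to 1 at ZT20 on caloric restriction, and 1 to 2 at ZT12 and 0 to 1 at ZT16 on control diet. Without the mice of 1 replicate number, which is up to 1 at each time, rhythmic members ran from 0 to 1 in WT and 0 to 0 in GR LKO on caloric restriction, and from 4 to 6 in WT and 1 to 4 in GR LKO on control diet.

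Called genes of all kinds varied too. On caloric restriction edgeR called 61 at ZT0 (DESeq2 434, joint fit 169, replicate block 9), 83 at ZT4 (440, 358, 13), 308 at ZT8 (697, 724, 151), 1795 at ZT12 (joint fit 2805, replicate block 889), 541 at ZT16 (917, 1025, 287) and 178 at ZT20 (686, 1127, 76). On control diet it called 63 at ZT0 (407, 630, 9), 23 at ZT4 (195, 48, 1), 166 at ZT8 (369, 36, 36), 238 at ZT12 (569, 537, 101), 232 at ZT16 (634, 469, 37) and 50 at ZT20 (297, 387, 3). CORT gave 935 (replicate block 534). Interactions numbered 0 at ZT0 (DESeq2 168), 0 at ZT4 (37), 10 at ZT8 (126), 123 at ZT12 (473), 29 at ZT16 (186) and 0 at ZT20 (48), with 6, 5 and 3 under the replicate block at ZT8, ZT12 and ZT16. Rhythmic genes numbered 4040 in WT and 3745 in GR LKO on caloric restriction (edgeR test of time 8123 and 7713), and rhythm differences 86 there (696) and 47 on control diet (77). Leaving out 1 library gave all-gene counts from 206 to 1008 for CORT; on caloric restriction 1 to 103 at ZT0, 13 to 127 at ZT4, 56 to 315 at ZT8, 899 to 1329 at ZT12, 234 to 346 at ZT16 and 16 to 194 at ZT20; and on control diet 3 to 81, 1 to 13, 56 to 160, 137 to 199, 84 to 183 and 12 to 48 at the same times. Interactions then ran from 0 to 17 at ZT4, 4 to 35 at ZT8, 49 to 148 at ZT12, 18 to 49 at ZT16 and 0 to 9 at ZT20. Without the mice of 1 replicate number, rhythmic genes ran from 393 to 756 in WT and 299 to 395 in GR LKO on caloric restriction, from 2384 to 3713 of 5150 in WT and 1200 to 3600 of 4243 in GR LKO on control diet, and rhythm differences from 0 to 2 and from 3 to 24.

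Groups of 3 or 4 mice, low counts of *Mogat1*, *Pnpla3* and *Gpam*, and exon bases shared with other genes (64 of *Agpat2* with *Egfl7*, 16 of *Agpat3* with *Gm40709*) limit these values.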
